A study of Sus scrofa with 32 samples.

Results

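Trimethylation of histone H3 at lysine 4 (H3K4me3) was compared between pig muscle satellite cells 60 h into differentiation and the same kind of cells at 0 h, in cultures that received no inhibitor. The members are the 4 H3K4me3 peak lists of untreated cells titled WT_60h and WT_0h, 2 libraries at each time, of 32 samples in the series, 24 of which have a peak list. The other H3K4me3 libraries, 4 of 8, came from cells given SGC-CBP30, an inhibitor of the acetyl-lysine-binding bromodomain in CBP and p300, both histone acetyltransferases. They entered the gene fit to add to the estimate of the spread, and so also entered its filter on low values and its quantile scaling. Some ranges cover all 8 lists, but no comparison with the treated cells is given. The assay was CUT&Tag, in which an antibody to the mark guides a transposase that tags the DNA beside it.

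The cells are labelled muscle satellite cell, tissue muscle, species Sus scrofa, and both groups carry the genotype label WT with no allele named. The labels conflict in places. The treatment field reads cell proliferation for the 60 h libraries too, so the time was taken from the titles. The cell line field and the growth protocol name C3H cells kept in RPMI with serum, beside a pig satellite cell type. Neither the number of donor animals nor the medium used for differentiation is given in the sources used here. Nothing says that the replicates were separate cultures, so p values measure only the spread between these libraries.

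H3K4me3 is laid down mainly by SET1 and MLL methyltransferases at the starts of genes that are transcribed or ready to be, and broad stretches of it are often found at genes that define a cell type. Satellite cells are the stem cells of skeletal muscle. When they differentiate they leave the cell cycle, switch on MYOG and MEF2 factors after MYOD1 and MYF5, fuse into myotubes and build sarcomeres. Peak positions and widths were the measurement, so a value says how much DNA a peak list covers, not how strong the mark was.

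The 8 H3K4me3 lists held 14898 to 17364 peaks, and 67.0 to 73.0% of the peaks of a list lay within 1 kb of an annotated gene end, against 8.89 to 11.0% of peaks moved by 200 kb. In each pair of untreated replicates 93.0 to 95.5% of peaks overlapped a peak of the other. How deeply each library was sequenced is not stated, so its precision is unknown. All 7 defining markers of the myogenic lineage (MYOD1, MYF5, PAX7, PAX3, DES, CDH15 and MYOG) had listed H3K4me3 in both 60 h libraries, and 6 had it in both 0 h libraries, the exception being MYOG. Of the 5 immune markers PTPRC, CSF1R and CD3E were at 0 in all 4 libraries, as were PECAM1, CDH5, KDR and TEK of 5 endothelial markers. So were MYH11, MYOCD and RGS5 of 4 smooth muscle markers, and ADIPOQ, PLIN1 and FABP4 of 4 adipocyte markers. The others had listed base. CD68 had 6.37 and 5.77 kb at 60 h, against 5.02 and 4.71 kb at 0 h. ERG had 2.27 and 2.05 kb, against 2.46 and 2.40 kb, and PPARG had 1.17 and 1.16 kb, against 1.36 and 1.23 kb. SPI1 had 1.03 and 1.02 kb, against 0.267 and 0 kb, in a window shared with MYBPC3. CNN1, the fourth smooth muscle marker, was listed at 60 h only. STMN2, of 5 neuronal and glial markers, was listed in all 4 libraries. Fibroblast markers were present: 5 of 6 had listed base at both times (DCN was at 0), with summed lengths of 18.7 and 17.7 kb at 60 h and 15.6 and 15.7 kb at 0 h.

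H3K4me3 peaks were wider at 60 h. The median width was 1485 and 1460 bp in the 60 h libraries, against 1082 and 1068 bp in the 0 h libraries. Peaks wider than 2 kb made up 32.0 and 30.4% of the lists at 60 h, against 18.5 and 18.9% at 0 h. Those wider than 4 kb numbered 654 and 597 at 60 h, against 242 and 231 at 0 h. In each of these measures both 60 h libraries lay above both 0 h libraries, by more than replicates differed. The number of peaks went the other way, with 16221 and 16139 at 60 h against 17092 and 17364 at 0 h. Peaks shorter than 500 bp were 11.5 and 12.6% of the lists at 60 h, against 22.3 and 23.4% at 0 h. In total 26.97 ± 0.60 Mb was covered at 60 h and 21.9 ± 0.188 Mb at 0 h (SD, n = 2 libraries each), a ratio of 1.23. With 2 libraries against 2 an exact permutation test (two-sided) cannot give a p below 0.33, and each of these measures gave that value. The share of peaks more than 2.5 kb from every gene end did not separate the times: 22.5 and 22.7% at 60 h, against 22.7 and 23.2% at 0 h, and the groups overlapped (exact permutation p = 0.667).

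The lists also differed in their shortest peak, which was 329 and 297 bp wide at 60 h and 224 and 225 bp wide at 0 h. Peaks below 329 bp numbered 0 and 484 at 60 h, against 1863 and 2016 at 0 h. With all peaks below that width left out of every list, the 60 h lists held on average 649.5 more peaks, where with all deposited peaks the difference was -1048. The median width still exceeded that at 0 h by 284.5 bp, against 397.5 bp in the lists as deposited. The median of the deposited −log10 q, a significance that MACS2 computed within each library, was 83.1 and 83.9 at 60 h and 30.2 and 27.7 at 0 h. Its part in the widths was not tested.

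**Figure D1:**
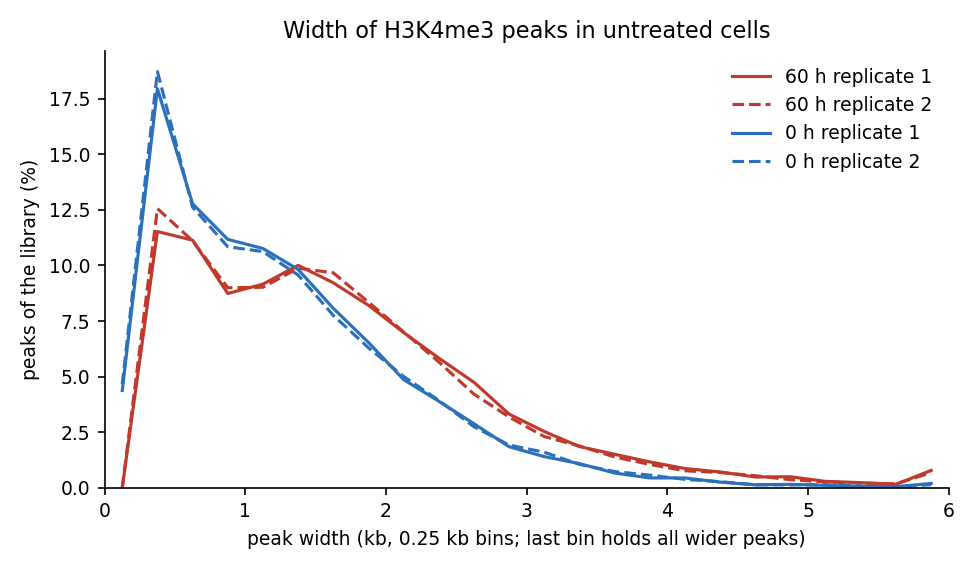
Width of H3K4me3 peaks in untreated cells, as the share of each library's peaks (y axis, percent) in bins of 0.25 kb (x axis, kb), with a line for each library. The 60 h libraries have fewer peaks under 500 bp (11.5 and 12.6%, against 22.3 and 23.4% at 0 h) and more above 2 kb (32.0 and 30.4% at 60 h, against 18.5 and 18.9% at 0 h).

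For genes, the value was the length of DNA under H3K4me3 peaks within 5 kb of either annotated end, since the gene table gives no strand. Of 19550 protein-coding genes, 12908 had at least 200 bp in at least 2 of the 8 H3K4me3 libraries. These were tested with limma (a call is an adjusted p below 0.05). Without scaling, 5354 genes (41.5%) were longer at 60 h and 725 (5.62%) shorter, and the median log2 change was 0.17. The split between longer and shorter depends on the scaling. After the 8 libraries were given the same distribution of lengths (quantile scaling), 2287 genes (17.7%) were longer and 3380 (26.2%) shorter, with a median of -0.06. Genes called in the same direction both ways numbered 2287 longer (17.7%) and 724 shorter (5.61%), and it is these that the verbs below refer to. Without 0 h replicate 2 the shorter genes numbered 445, and without 60 h replicate 2 they numbered 469. The 4 fits that each left out 1 library gave between 1623 and 1832 longer genes. Called under both scalings in every one of these fits that could test them were 1373 longer genes (10.6%) and 363 shorter (2.81%), and the counts below name how many members of a list were among them. Where a gene had no listed base in one group, its fold depends on an added constant of 500 bp. The paragraphs on genes give lengths without a fold for it. List medians include such genes. Those of the thin and thick filament lists, with median 0 h lengths of 0 and 0.067 kb, depend on that constant too. So do the printed folds of genes with short lengths in a group, or with no listed base in 1 of its libraries. At MEOX2 the log2 change was 2.22, against 3.49 for the region there, which had the same lengths and no added constant. Groups said not to overlap describe genes mostly named for their call, and add no further support.

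**Figure D2:**
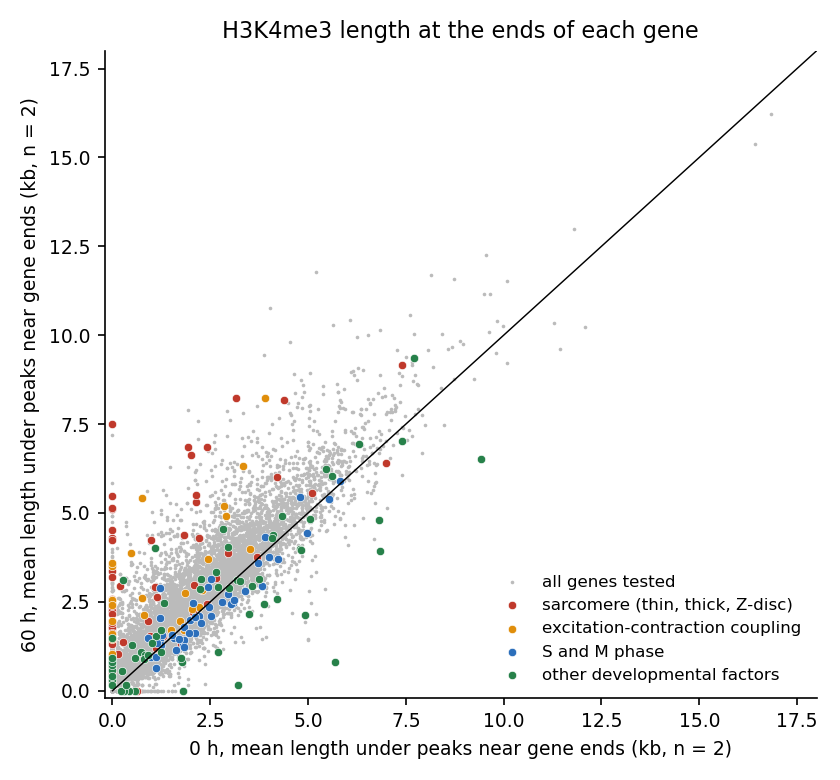
Mean length under H3K4me3 peaks within 5 kb of a gene's ends at 60 h (y axis, kb, n = 2 libraries) against 0 h (x axis, kb, n = 2 libraries), with a point for each of 12908 genes and the line of equal length. Most sarcomere and excitation-contraction coupling genes lie above the line or on the left edge (no listed base at 0 h). MYH7B lies on the lower edge, and many of the other developmental factors lie below the line.

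Of all 19550 genes, 542 had listed H3K4me3 in both libraries at 60 h but none at 0 h, and 159 showed the reverse. Muscle genes stood high in the ranking by increase, with ACTC1, TNNT2, TTN, CHRNA1 and MYMK among the first 12, but genes of other kinds stood beside them. NKAIN4, whose product binds a subunit of the sodium pump, had 6.17 and 5.51 kb at 60 h and no listed base in either 0 h library (adjusted p = 6.55e-06). EEF1A2, the translation elongation factor isoform of muscle and neurons, had 4.93 and 5.16 kb at 60 h and no listed base in either 0 h library (adjusted p = 2.61e-06). SHISA2, a membrane protein that in mouse takes part in myoblast fusion, had 4.78 and 5.28 kb at 60 h and no listed base in either 0 h library. In all 3 genes the libraries of a group were close, and groups that do not overlap were a condition of this ranking. KLHL30, a kelch family gene, had 4.83 and 4.99 kb at 60 h and no listed base in either 0 h library. An unnamed gene, LOC396711 at chr12:55351152-55373236 on Sscrofa11.1, had 5.35 and 5.49 kb at 60 h and no listed base in either 0 h library.

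Several of the largest decreases were at genes of neural tissue. Beside SIX3, in a window shared with LOC110260022, and GBX2 and TLX3, homeobox genes of brain and neural tissue, they included JPH3, the junctophilin of brain, with 0.384 and 0 kb at 60 h, against 2.67 and 2.03 kb at 0 h (adjusted p = 0.00135). POU3F2, a transcription factor of neural progenitors, had no listed base in either 60 h library, against 1.95 and 1.11 kb at 0 h (adjusted p = 0.000520). ROBO1, a receptor for Slit guidance proteins, had 0.348 and 0 kb at 60 h, against 1.83 and 2.01 kb at 0 h. Each shortened, and groups that do not overlap were a condition of this ranking too. HAPLN1, which links hyaluronan to proteoglycans, had no listed base in either 60 h library, against 1.58 and 1.48 kb at 0 h. VSNL1, a neuronal calcium sensor, had no listed base in either 60 h library, against 1.62 and 1.59 kb at 0 h. Another was PCSK1, a prohormone convertase of endocrine cells, with no listed base in either 60 h library, against 1.14 and 1.33 kb at 0 h. CLVS2, C10H1orf106 and LOC100525483 completed the first 12, each with no listed base in either 60 h library.

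Among the myogenic regulatory factors and their partners, 12 of 27 tested genes were longer and 2 shorter, against 17.7 and 5.61% of all genes tested. Those shares, and 10.6 and 2.81% for calls that held with each library left out, apply to every list below. The counts were 17 and 2 without scaling and 12 and 4 with quantile scaling, 10 and 2 with each library left out, and the median log2 change was 0.30 and 0.10. MYOG, the factor that drives terminal differentiation, had 4.03 and 3.93 kb at 60 h and no listed base in either 0 h library (adjusted p = 1.56e-06). MEF2D, a partner of the MyoD family, had 6.3 and 5.63 kb at 60 h, against 3.14 and 2.67 kb at 0 h (log2 change 0.93, adjusted p = 0.000324). VGLL2, a muscle cofactor of TEAD proteins, had 4.38 and 4.57 kb at 60 h, against 2.56 and 2.79 kb at 0 h. The groups did not overlap in any of the 3. MYF5, a determination factor of early myoblasts, shortened to 3.44 and 3.32 kb at 60 h, against 4.25 and 4.52 kb at 0 h (log2 change -0.33 ± 0.04 SE, adjusted p = 0.00170). With a window of 2 kb its log2 change was -0.0035 and it was not called (adjusted p = 0.945). MYF6, the late member of the family, had 0.897 and 0.846 kb at 60 h, against 0.531 and 0.979 kb at 0 h and was not called (adjusted p = 0.490). It was called longer with a window of 2 kb (log2 change 1.18, adjusted p = 0.00378) and without 0 h replicate 2 (0.41, adjusted p = 0.0309).

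**Figure D3:**
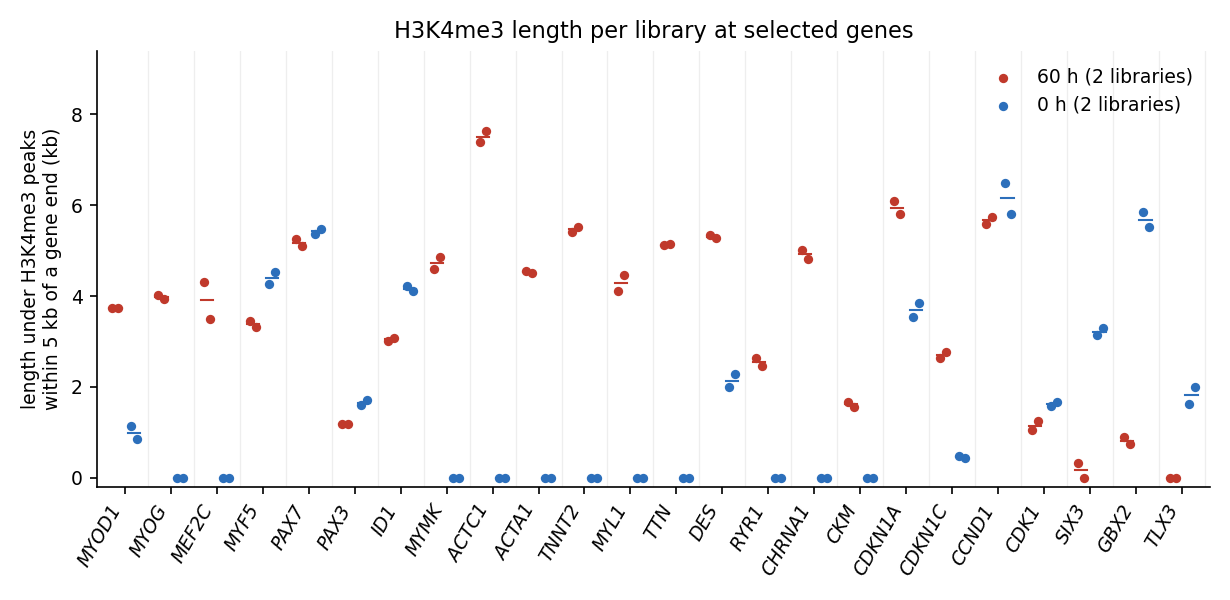
Length under H3K4me3 peaks within 5 kb of a gene's ends (y axis, kb) in each library for 24 genes (x axis), with 60 h in red to the left of 0 h in blue and a short line at each mean of 2 libraries. MYOG, MYMK, RYR1 and CKM sit at 0 in both 0 h libraries, MYF5, PAX3, ID1, GBX2 and TLX3 lie lower at 60 h, and PAX7 was not called without scaling.

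Among satellite cell and progenitor genes 10 of 23 were longer and 1, PAX3, was shorter (12 and 1 without scaling, 10 and 6 with quantile scaling, 7 and 1 with each library left out, median log2 change 0.37 and 0.16). PAX7, the factor that defines satellite cells, had 5.25 and 5.1 kb at 60 h, against 5.37 and 5.47 kb at 0 h and was not called (log2 change -0.06, adjusted p = 0.586), though with quantile scaling it was called shorter (-0.29, adjusted p = 0.0343). CD82, a tetraspanin of human muscle stem cells, had 4.99 and 4.93 kb at 60 h, against 1.28 and 1.23 kb at 0 h (log2 change 1.64, adjusted p = 4.70e-06). FGFR4, a receptor for fibroblast growth factors, had 2.69 and 2.7 kb at 60 h, against 0.818 and 0.885 kb at 0 h. Both lengthened with groups far apart. CDH15, the M-cadherin of satellite cells and myoblasts, lengthened to 4.4 and 4.38 kb at 60 h, against 2.2 and 2.12 kb at 0 h. With a window of 2 kb its log2 change was 0.04 and the call was lost (adjusted p = 0.536).

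The Notch pathway keeps satellite cells quiescent and holds back differentiation, and ID proteins hold back differentiation too. Of 20 Notch and ID genes tested, 10 were longer and 3 shorter (14 and 3 without scaling, 10 and 5 with quantile scaling, 7 and 2 with each library left out, and a median log2 change of 0.39, or 0.19 with that scaling). The ligand DLL1 had 4.76 and 4.74 kb at 60 h, against 1.07 and 1.06 kb at 0 h (log2 change 1.75, adjusted p = 0.000454). NOTCH3, a receptor, had 3.01 and 3.42 kb at 60 h, against 0.801 and 0.306 kb at 0 h (log2 change 1.86). HES6, a HES family member that opposes HES1, had 5.46 and 5.95 kb at 60 h, against 1.99 and 1.87 kb at 0 h. These 3 and LFNG, which modifies Notch receptors with sugar, lengthened without overlap of the groups. RBPJ, the DNA-binding protein through which Notch acts, had no listed base in either 60 h library, against 0.590 and 0.669 kb at 0 h. ID1, which sequesters the E protein partners of MYOD1, shortened to 3.01 and 3.09 kb at 60 h, against 4.22 and 4.1 kb at 0 h (log2 change -0.39). ID3 was called too, but not once any 1 of the 4 libraries was left out.

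Myoblast fusion genes were longer in 8 of 22 cases and shorter in 2 (11 and 2 without scaling, 8 and 3 with quantile scaling, 5 and 0 with each library left out, and a median log2 change of 0.21, or 0.01 with that scaling). Beside MYMK, the fusogen myomaker, 3 genes had listed H3K4me3 at 60 h only. IL4R, a receptor for a cytokine that recruits myoblasts, had 2.54 and 2.53 kb at 60 h and no listed base in either 0 h library. CAV3, the caveolin of muscle, had 2.59 and 2.22 kb at 60 h and no listed base in either 0 h library. TMEM182, a muscle membrane protein, had 1.32 and 1.5 kb at 60 h and no listed base in either 0 h library. JAM3, an adhesion molecule, was already marked and lengthened to 3.32 and 2.92 kb at 60 h, against 1.43 and 1.33 kb at 0 h.

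Thin and thick filament genes of the sarcomere held the largest shares of lengthened members among the 30 lists. Thin filament genes, which encode actins, troponins, tropomyosins and their caps, were longer in 16 of 20 cases and shorter in 0, and 11 of them had no listed base at 0 h. With each library left out 14 held, without scaling 17 were longer, and the median log2 change was 2.07, or 1.69 with quantile scaling. NEB, the ruler protein nebulin, had 2.47 and 2.25 kb at 60 h and no listed base in either 0 h library. The slow troponin gene TNNI1 had 3.41 and 3.35 kb at 60 h and no listed base in either 0 h library, and the fast gene TNNT3 had 2.27 and 2.3 kb at 60 h and no listed base in either 0 h library, in a window shared with LOC110259216. A slow and a fast troponin gene, of different subunits, were thus listed at 60 h and absent from the 0 h lists. TNNT1, a further slow troponin, was already marked at 0 h and lengthened to 6.56 and 6.68 kb at 60 h, against 1.91 and 2.12 kb at 0 h. The region on an end of TNNT1 had 3.53 and 3.51 kb at 60 h, against 0.245 and 0.524 kb at 0 h. Most of the 0 h length thus lay elsewhere in its windows. KLHL40, which stabilises thin filament proteins, had 2.73 and 3.13 kb at 60 h, against 0 and 0.370 kb at 0 h (log2 change 2.38, adjusted p = 0.00115).

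Thick filament and myosin genes were longer in 16 of 20 cases and shorter in 1, and 10 had listed base at 60 h only (15 and 1 with each library left out, median log2 change 1.49, or 1.24 with quantile scaling). MYOM3, a protein of the M-band, had 2.66 and 2.23 kb at 60 h and no listed base in either 0 h library. MYL2, the slow regulatory light chain, had 2.42 and 2.04 kb at 60 h and no listed base in either 0 h library. MYLPF, the regulatory light chain of fast muscle, was marked at both times and lengthened to 8.4 and 8.09 kb at 60 h, against 3.27 and 3.06 kb at 0 h (log2 change 1.26). All 3 separated the groups. The one shortened member was MYH7B, a slow myosin heavy chain gene that hosts a microRNA, with no listed base in either 60 h library, against 0.585 and 0.656 kb at 0 h (adjusted p = 0.000282). Of the Z-disc and intermediate filament genes 16 of 24 were longer and 0 shorter, 10 of them from no listed base (18 and 0 without scaling, 16 and 3 with quantile scaling, 16 and 0 with each library left out, and a median log2 change of 1.17, or 0.95 with that scaling). ANKRD1, a stress-responsive titin partner, had 4.39 and 4.06 kb at 60 h and no listed base in either 0 h library. ACTN2, the muscle alpha-actinin that crosslinks actin at the Z-disc, had 3.15 and 3.23 kb at 60 h and no listed base in either 0 h library. Desmin (DES), the intermediate filament of muscle, lengthened to 5.34 and 5.27 kb at 60 h, against 1.99 and 2.28 kb at 0 h (log2 change 1.14, adjusted p = 0.000129).

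Genes that tie the sarcomere to the membrane had a smaller share of lengthened members than the filament genes. Costamere and dystrophin complex genes were longer in 11 of 25 cases and shorter in 0 (16 and 0 without scaling, 11 and 2 with quantile scaling, 7 and 0 with each library left out), with a median log2 change of 0.34, or 0.10 with quantile scaling. SNTB1, a syntrophin of the dystrophin complex, had 3.51 and 3.58 kb at 60 h, against 0.416 and 0.527 kb at 0 h (log2 change 2.06, adjusted p = 2.94e-05). SGCA, alpha-sarcoglycan, had 3.87 and 2.65 kb at 60 h, against 1.26 and 0.834 kb at 0 h (log2 change 1.28). The groups stood apart in both genes.

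Excitation-contraction coupling genes, which turn the nerve signal into calcium release, were longer in 18 of 27 cases and shorter in 0, with 9 listed at 60 h only (20 and 0 without scaling, 18 and 2 with quantile scaling, 16 and 0 with each library left out, and a median log2 change of 0.997, or 0.77 with that scaling). RYR1, the calcium release channel, had 2.63 and 2.47 kb at 60 h and no listed base in either 0 h library (adjusted p = 1.13e-05). SCN4A, the sodium channel of the muscle fibre, had 3.48 and 3.69 kb at 60 h and no listed base in either 0 h library. CASQ2, the calcium store protein calsequestrin, had 3.44 and 3.6 kb at 60 h and no listed base in either 0 h library. The set thus ran from the surface channel to the store. JPH2, a junctophilin that holds the surface membrane against the store, was listed at both times and lengthened to 3.81 and 3.95 kb at 60 h, against 0.467 and 0.469 kb at 0 h (log2 change 2.18). ORAI1, a store-operated calcium channel found in many cell types, lengthened to 2.17 and 2.07 kb at 60 h, against 0.728 and 0.887 kb at 0 h.

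At the neuromuscular synapse 6 of 13 genes were longer and 2 shorter (8 and 2 without scaling, 6 and 3 with quantile scaling, 6 and 1 with each library left out, and a median log2 change of 0.52, or 0.33 with that scaling). The receptor subunit gene CHRND had 4.8 and 4.69 kb at 60 h, against 0.332 and 0.354 kb at 0 h (log2 change 2.64, adjusted p = 0.000223). These 0 h lengths equal those of the region at its neighbour CHRNG, given below, which reaches into the window of CHRND. MUSK, the kinase that gathers receptors, had 1.83 and 1.83 kb at 60 h, against 0.265 and 0 kb at 0 h (log2 change 1.91). ACHE, the enzyme that breaks down acetylcholine, had 4.61 and 5.18 kb at 60 h, against 1.49 and 1.3 kb at 0 h. All 3 lengthened with no overlap. LRP4, the co-receptor of MUSK, went the other way, with 1.76 and 1.64 kb at 60 h, against 2.22 and 1.91 kb at 0 h (log2 change -0.22), though its call was lost without either 60 h replicate (adjusted p = 0.0814 and 0.162) and without 0 h replicate 1 (0.153). AGRN, which encodes the nerve-derived ligand agrin, shortened too, with 1.26 and 1.15 kb at 60 h, against 2.4 and 2.29 kb at 0 h, but it shares its window with ISG15 and LOC110261384, so these genes cannot be told apart.

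Of the glycolysis and glycogen genes 13 of 32 were longer and 0 shorter (21 and 0 without scaling, 13 and 3 with quantile scaling, 9 and 0 with each library left out, and a median log2 change of 0.36, or 0.13 with that scaling). Muscle forms led. CKM, the muscle creatine kinase, had 1.68 and 1.56 kb at 60 h and no listed base in either 0 h library (adjusted p = 9.44e-05). PYGM, muscle glycogen phosphorylase, had 0.905 and 1.18 kb at 60 h and no listed base in either 0 h library. PHKG1, a subunit of phosphorylase kinase, lengthened to 1.84 and 1.89 kb at 60 h, against 0.401 and 0 kb at 0 h (log2 change 1.82). GAPDH, a glycolytic enzyme of all cells, had 7.3 and 6.68 kb at 60 h, against 4.43 and 4.51 kb at 0 h (log2 change 0.59, or 0.37 with quantile scaling), and its call did not hold in both scalings with each library left out. Among mitochondrial and oxidative regulators 5 of 18 were longer and 1 shorter (8 and 1 without scaling, 5 and 2 with quantile scaling, 4 and 1 with each library left out), and the median log2 change was 0.29, or -0.01 with quantile scaling. PPARGC1B, a coactivator of mitochondrial genes, had 3.68 and 3.34 kb at 60 h, against 1.35 and 0.849 kb at 0 h. FABP3, a fatty acid carrier of muscle, had 2.96 and 2.94 kb at 60 h, against 1.35 and 1.35 kb at 0 h. COX7A1, the muscle form of a respiratory chain subunit, had 3.27 and 3.08 kb at 60 h, against 0.304 and 0.371 kb at 0 h, in a window shared with ZNF146.

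Cell cycle genes were more often called shorter than longer, by small amounts, and few of these calls held with each library left out. Of 44 S and M phase genes 13 were shorter and 2 longer (13 and 6 without scaling, 31 and 2 with quantile scaling, 2 and 0 with each library left out), and the median log2 change was -0.07, or -0.30 with quantile scaling. The shorter share was 29.5%, against 5.61% of all genes tested. With each library left out 2.81% of all genes held as shorter. BUB1B, a kinase of the spindle checkpoint, had 1.12 and 1.36 kb at 60 h, against 1.81 and 1.84 kb at 0 h (log2 change -0.42, adjusted p = 0.00582). MKI67, the proliferation antigen, had 2.73 and 2.16 kb at 60 h, against 3.07 and 3.0 kb at 0 h (log2 change -0.27), and its call was lost without 60 h replicate 2 (adjusted p = 0.0943) and without either 0 h replicate (0.155 and 0.121). In both the 60 h libraries lay below the 0 h libraries, yet most of the length was still listed. CCNB1, cyclin B, had 2.36 and 2.57 kb at 60 h, against 2.1 and 2.0 kb at 0 h and was not called (adjusted p = 0.105), but was called longer in a fit of the 4 untreated libraries alone (adjusted p = 0.0486). CDK1, which drives entry into mitosis, was called shorter, but not without 60 h replicate 1 (adjusted p = 0.104) or without either 0 h replicate (0.0540 and 0.0893). The longer members, E2F2 and CDC25B, did not hold with each library left out either.

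D-type cyclin, CDK inhibitor and retinoblastoma genes, which govern whether a cell cycles or leaves the cycle, were longer in 7 of 23 cases and shorter in 0 (8 and 0 without scaling, 7 and 10 with quantile scaling, 5 and 0 with each library left out, and a median log2 change of 0.07, or -0.14 with that scaling, so that split turns with the scaling). CCND3, the D-type cyclin kept in differentiated muscle, had 6.22 and 6.15 kb at 60 h, against 3.15 and 3.06 kb at 0 h (log2 change 0.89, adjusted p = 2.27e-05). RB1, the retinoblastoma protein that holds back E2F factors, had 3.41 and 3.46 kb at 60 h, against 2.17 and 2.06 kb at 0 h (log2 change 0.59). Both lengthened, beside the inhibitor genes CDKN1A and CDKN1C, though the call of CDKN1A was lost with a window of 2 kb (log2 change 0.12, adjusted p = 0.316). CCND1, the cyclin of growing myoblasts, had 5.59 and 5.75 kb at 60 h, against 6.49 and 5.82 kb at 0 h and was not called (adjusted p = 0.152). It was called shorter with quantile scaling (log2 change -0.32, adjusted p = 0.00563), with median centring (-0.28, adjusted p = 0.0123) and without 0 h replicate 2 (-0.18, adjusted p = 0.0356). Growth-stimulated transcription factor genes were longer in 9 of 27 cases and shorter in 2 (17 and 2 without scaling, 9 and 5 with quantile scaling, 6 and 1 with each library left out, and a median log2 change of 0.28, or 0.05 with that scaling). KLF10 had 4.8 and 5.26 kb at 60 h, against 2.71 and 2.45 kb at 0 h (log2 change 0.84), and EGR1, an immediate early factor, had 5.56 and 5.37 kb at 60 h, against 3.57 and 3.65 kb at 0 h (log2 change 0.54). ETV4, a target of growth factor signals, shortened to 1.87 and 1.77 kb at 60 h, against 2.27 and 2.27 kb at 0 h (log2 change -0.26).

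Of the signalling lists that of TGF-beta, BMP and activin had 14 of 30 longer members and 1 shorter (19 and 1 without scaling, 14 and 2 with quantile scaling, 10 and 0 with each library left out, and a median log2 change of 0.46, or 0.25 with that scaling). The ligand gene TGFB1 had 7.21 and 7.16 kb at 60 h, against 2.69 and 2.57 kb at 0 h (log2 change 1.3, adjusted p = 7.69e-05). INHBB, a subunit of activin B, had 1.28 and 2.04 kb at 60 h, against 0.321 and 0 kb at 0 h (log2 change 1.73). Both separated the groups. The receptors TGFBR2 and ACVR1B lengthened too, and TGFBR2 had 4.0 and 3.34 kb at 60 h, against 1.84 and 2.11 kb at 0 h. SMAD3, which carries the signal to the nucleus, had 4.59 and 4.03 kb at 60 h, against 2.05 and 2.53 kb at 0 h (log2 change 0.79). FSTL3, a secreted inhibitor of activins, lengthened to 6.43 and 6.1 kb at 60 h, against 2.99 and 2.86 kb at 0 h. CHRD, a secreted BMP antagonist with the largest change among the called members, had 1.74 and 2.0 kb at 60 h and no listed base in either 0 h library, in a window shared with THPO.

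WNT pathway genes were longer in 10 of 32 cases and shorter in 4 (17 and 4 without scaling, 10 and 7 with quantile scaling, 6 and 2 with each library left out, and a median log2 change of 0.38, or 0.12 with that scaling). The ligand gene WNT7A, which in mouse promotes satellite cell expansion, had no listed base in either 60 h library, against 0.704 and 0.642 kb at 0 h. The receptor gene FZD2 lengthened to 4.96 and 4.95 kb at 60 h, against 1.63 and 1.67 kb at 0 h (log2 change 1.34, adjusted p = 6.84e-06). SFRP1, a secreted WNT inhibitor, had 1.77 and 1.62 kb at 60 h, against 0.278 and 0.344 kb at 0 h (log2 change 1.44). AXIN2, a negative regulator that WNT signals induce, had 4.06 and 4.23 kb at 60 h, against 1.86 and 1.76 kb at 0 h (log2 change 1.01). Inhibitors of the pathway thus lengthened in both cases, while DKK2, another secreted inhibitor, shortened to 1.86 and 1.85 kb at 60 h, against 2.63 and 2.67 kb at 0 h (log2 change -0.42). In the IGF and insulin list 6 of 17 were longer and 1 shorter (9 and 1 without scaling, 6 and 5 with quantile scaling, 3 and 0 with each library left out, and a median log2 change of 0.24, or -0.05 with that scaling). FOXO1, a factor held back by insulin signals, had 6.02 and 5.63 kb at 60 h, against 3.69 and 3.7 kb at 0 h (log2 change 0.59), and the ubiquitin ligase gene FBXO32, atrogin-1, had 3.18 and 3.57 kb at 60 h, against 1.96 and 2.21 kb at 0 h.

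HOX genes, which encode position from head to tail, were called in both directions. Of 34 tested, 5 were longer and 6 shorter (7 and 7 without scaling, 5 and 13 with quantile scaling, 5 and 3 with each library left out, and a median log2 change of 0.07, or -0.11 with that scaling). In the HOXC cluster on chromosome 5, HOXC4 had 3.54 and 3.56 kb at 60 h, against 0.442 and 0.542 kb at 0 h (log2 change 2.03), HOXC5 had 2.68 and 2.33 kb at 60 h and no listed base in either 0 h library, and HOXC6 had 8.12 and 8.05 kb at 60 h, against 4.33 and 5.13 kb at 0 h (log2 change 0.72). Neighbours in a cluster are close, so a peak can count for more than 1 gene. In the HOXB cluster on chromosome 12, HOXB5 had 0.415 and 0.430 kb at 60 h, against 1.44 and 1.45 kb at 0 h (log2 change -1.08), HOXB6 had 1.38 and 1.35 kb at 60 h, against 3.11 and 3.15 kb at 0 h, and HOXB7 had 2.53 and 2.4 kb at 60 h, against 5.39 and 4.75 kb at 0 h (log2 change -0.91). All 3 neighbours were called shorter, and the groups did not overlap in any of them. The call of HOXB6 was lost at a −log10 q of at least 5 (log2 change -0.57, adjusted p = 0.0769) and in lists of equal length (-0.57, adjusted p = 0.0725).

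Other developmental transcription factor genes were shorter in 17 of 62 cases and longer in 9 (17 and 17 without scaling, 27 and 9 with quantile scaling, 13 and 4 with each library left out, and a median log2 change of 0.09, or -0.19 with that scaling). Neural factors were among those that shortened. NKX6-1, a factor of neural tube and pancreas, had no listed base in either 60 h library, against 0.702 and 0.452 kb at 0 h (adjusted p = 0.00123). NEUROG2, a neurogenic factor, had 2.34 and 1.92 kb at 60 h, against 4.92 and 4.91 kb at 0 h (log2 change -1.05). PITX1, a factor of the hindlimb, had 1.06 and 0.785 kb at 60 h, against 1.93 and 1.56 kb at 0 h (log2 change -0.66). Others moved the opposite way, and MEOX2, a factor of limb muscle, lengthened to 3.27 and 2.96 kb at 60 h, against 0.299 and 0.256 kb at 0 h (log2 change 2.22, adjusted p = 8.75e-06). EMX2, a factor of brain and urogenital tract, lengthened to 4.05 and 3.96 kb at 60 h, against 1.24 and 0.921 kb at 0 h, and PAX9, a factor of the vertebral column, had 1.53 and 1.42 kb at 60 h and no listed base in either 0 h library.

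Extracellular matrix and fibroblast genes were longer in 15 of 35 cases and shorter in 5 (20 and 5 without scaling, 15 and 8 with quantile scaling, 9 and 3 with each library left out, and a median log2 change of 0.45, or 0.22 with that scaling). COL6A3, a collagen around muscle fibres, had 3.74 and 2.82 kb at 60 h, against 0 and 0.372 kb at 0 h (log2 change 2.51, adjusted p = 0.000645). PDGFRB, a growth factor receptor of pericytes and fibroblasts, had 3.25 and 3.06 kb at 60 h, against 0.711 and 0.658 kb at 0 h (log2 change 1.63). TIMP3, an inhibitor of matrix proteases, had 2.8 and 2.68 kb at 60 h, against 0.439 and 0.545 kb at 0 h (log2 change 1.71). PDGFRB and TIMP3 were marked in all 4 libraries, and COL6A3 in 1 of the 0 h libraries. LAMB1, a laminin chain, shortened to 3.21 and 3.07 kb at 60 h, against 4.49 and 4.86 kb at 0 h, and COL1A2, a chain of type I collagen, lengthened to 6.44 and 6.43 kb at 60 h, against 2.71 and 3.5 kb at 0 h (log2 change 0.95). A change in the share of fibroblasts and a change of the mark within cells cannot be told apart in bulk libraries.

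Markers of further cell types gave mixed counts. Smooth muscle and pericyte genes were longer in 6 of 10 cases and shorter in 0 (6 and 3 with quantile scaling), and all 6 held with each library left out. LMOD1 changed most, with 3.182 and 2.455 kb at 60 h and no listed base in either 0 h library (adjusted p = 6.83e-05). DES, TPM4 and ACTA2 in that list are also expressed in skeletal myoblasts, and the defining markers MYH11, MYOCD and RGS5 were at 0. The fourth defining marker, CNN1, the calponin of smooth muscle, had 0.930 and 1.25 kb at 60 h and no listed base in either 0 h library and was among the longer genes (adjusted p = 0.000668), and its part in the other results was not tested. Of the endothelial genes 4 could be tested, and 2, ENG and FLT1, were longer, of which FLT1 did not hold with each library left out. In the immune list 1 of 8 was longer and 2 were shorter, and the longer one, SPI1, has the same window as the myosin-binding protein gene MYBPC3. Of the shorter ones, CD79A held with each library left out and CORO1A did not. Neuronal and glial genes were longer in 3 of 7 cases and shorter in 2 (3 and 3 with quantile scaling, 1 and 2 with each library left out). DCX changed most, with 1.6 and 1.6 kb at 60 h, against 0.416 and 0 kb at 0 h (log2 change 1.63), in a window shared with ALG13. NEFL lengthened to 1.14 and 1.10 kb at 60 h, against 0.441 and 0.459 kb at 0 h (log2 change 0.77). MAP2, a microtubule protein of dendrites, had 0.397 and 0 kb at 60 h, against 1.06 and 1.14 kb at 0 h (log2 change -1.26).

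Adipogenic genes were longer in 6 of 17 cases and shorter in 1 (10 and 1 without scaling, 5 and 0 with each library left out), with the adipocyte markers ADIPOQ, PLIN1 and FABP4 at 0 in all 4 libraries. EBF2, a factor of brown fat precursors, had 4.09 and 3.92 kb at 60 h, against 0.230 and 0 kb at 0 h (log2 change 2.9, adjusted p = 6.41e-05). SCD, a fatty acid desaturase, had 6.01 and 4.98 kb at 60 h, against 1.42 and 1.29 kb at 0 h (log2 change 1.69). CIDEA, a lipid droplet protein, had 4.95 and 4.63 kb at 60 h, against 1.3 and 1.46 kb at 0 h. All 3 lengthened without overlap of the groups. CEBPD, an early factor of adipogenesis, had 4.73 and 4.49 kb at 60 h, against 2.64 and 2.04 kb at 0 h (log2 change 0.86).

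Cytoplasmic ribosomal protein genes were longer in 1 of 74 cases and shorter in 7, with a median log2 change of -0.0033 (8 and 7 without scaling, 1 and 39 with quantile scaling, 0 and 3 with each library left out, median -0.20). Interferon-stimulated genes were longer in 3 of 33 cases and shorter in 4 (4 and 4 without scaling, 3 and 18 with quantile scaling, 1 and 3 with each library left out, and a median log2 change of -0.07, or -0.31 with that scaling). IRF1, an interferon-induced factor, had 1.96 and 1.96 kb at 60 h, against 1.03 and 1.21 kb at 0 h (log2 change 0.61), and BST2, tetherin, had 0.334 and 0.370 kb at 60 h, against 0.755 and 0.697 kb at 0 h (log2 change -0.52).

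Genes that write and erase H3K4 methylation were longer in 3 of 24 cases and shorter in 0 (12 and 0 without scaling, 3 and 4 with quantile scaling, 3 and 0 with each library left out, and a median log2 change of 0.20, or -0.0034 with that scaling). The longer share, 12.5%, was below the 17.7% of all genes tested. SMYD1, a methyltransferase of striated muscle that acts on sarcomeres, had 1.5 and 1.54 kb at 60 h and no listed base in either 0 h library. SMYD2, a relative, had 1.55 and 1.64 kb at 60 h, against 0.372 and 0.371 kb at 0 h (log2 change 1.26). SETD1B, a catalytic subunit of a SET1 complex, had 7.84 and 8.07 kb at 60 h, against 4.45 and 5.25 kb at 0 h (log2 change 0.66, adjusted p = 0.00113). Polycomb genes were longer in 4 of 29 cases and shorter in 3 (11 and 3 without scaling, 4 and 8 with quantile scaling, 3 and 3 with each library left out, and a median log2 change of 0.11, or -0.08 with that scaling). These shares, 13.8 and 10.3%, stood against 17.7 and 5.61% of all genes tested. The proliferation-linked accessory gene PHF19 shortened to 0.672 and 0.741 kb at 60 h, against 1.85 and 1.81 kb at 0 h (log2 change -0.95, adjusted p = 5.11e-05), and its paralogue PHF1 lengthened to 4.13 and 4.6 kb at 60 h, against 2.58 and 2.27 kb at 0 h (log2 change 0.74). EZH2, the H3K27 methyltransferase of dividing cells, had 3.19 and 2.85 kb at 60 h, against 2.67 and 2.86 kb at 0 h and was not called under both scalings.

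**Figure D4:**
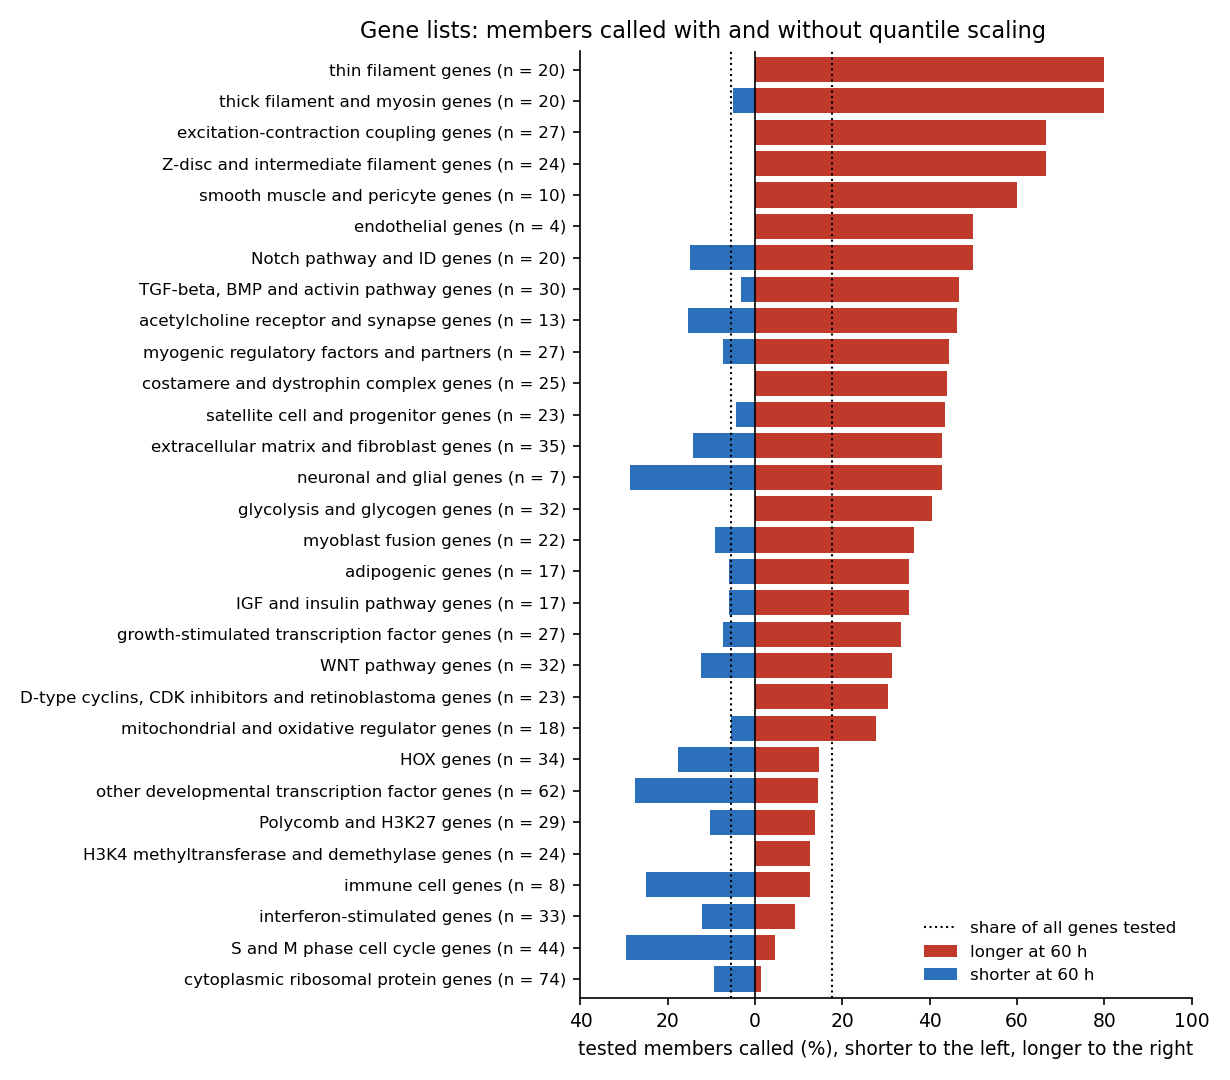
Share of tested members of each of 30 gene lists (y axis) called longer at 60 h (red, to the right) or shorter (blue, to the left) with and without quantile scaling (x axis, percent). Dotted lines mark the shares over all 12908 genes, 17.7% longer and 5.61% shorter, and the thin and thick filament lists stand highest while S and M phase and other developmental factor lists have more shortened than lengthened members.

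Regions were then compared without reference to genes. Peaks of the 4 libraries merged into 18449 regions. Both 60 h libraries and neither 0 h library had a peak in 1668 of them (9.04%, gained), the reverse held for 967 (5.24%, lost), and 12807 had a peak in all 4 (constant). Lost regions were short, and 434 of the 967 (44.9%) were below 329 bp in a 0 h library, a width that 60 h replicate 1 did not list at all. With peaks below that width left out of every list 553 regions were lost and 1994 gained. Leaving out a library also moved the lost count by more than 1.5 times: it was 1691 without 0 h replicate 1 and 1515 without 0 h replicate 2. All 4 such counts of gained regions lay between 1879 and 2335.

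Gained and lost regions lay apart from gene ends more often than constant ones. A gene end lay within 286 of 1627 gained regions on placed chromosomes (17.6%), 44 of 946 lost regions (4.65%) and 7958 of 12610 constant regions (63.1%). That measure depends on width. The median was 0.623 kb at 60 h for gained and 0.43 kb at 0 h for lost regions. For constant ones it was 1.73 kb at 60 h and 1.47 kb at 0 h. Within 2.5 kb of a gene end lay 55.5% of gained, 40.8% of lost and 82.8% of constant regions. Regions more than 2.5 kb from every gene end and within a gene body made up 31.0% of gained and 31.9% of lost regions, against 10.9% of constant ones, and those between genes made up 13.5, 27.3 and 6.25%. H3K27ac, a mark of active promoters and enhancers measured in the same series, overlapped 38.5 and 36.2% of gained regions in the 60 h libraries, against 14.9 and 13.5% in the 0 h libraries. Of lost regions it overlapped 18.3 and 16.4% at 60 h, against 31.9 and 29.4% at 0 h. The constant regions, which the choice of regions does not tie to either time, had 56.7 and 53.0% at 60 h, against 36.4 and 30.7% at 0 h. The H3K27ac lists differed in length as well, with 23437 and 21694 peaks at 60 h and 19531 and 17338 at 0 h. Exact permutation tests (two-sided) of these shares gave p = 0.33, the lowest that 2 against 2 libraries can reach.

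**Figure D5:**
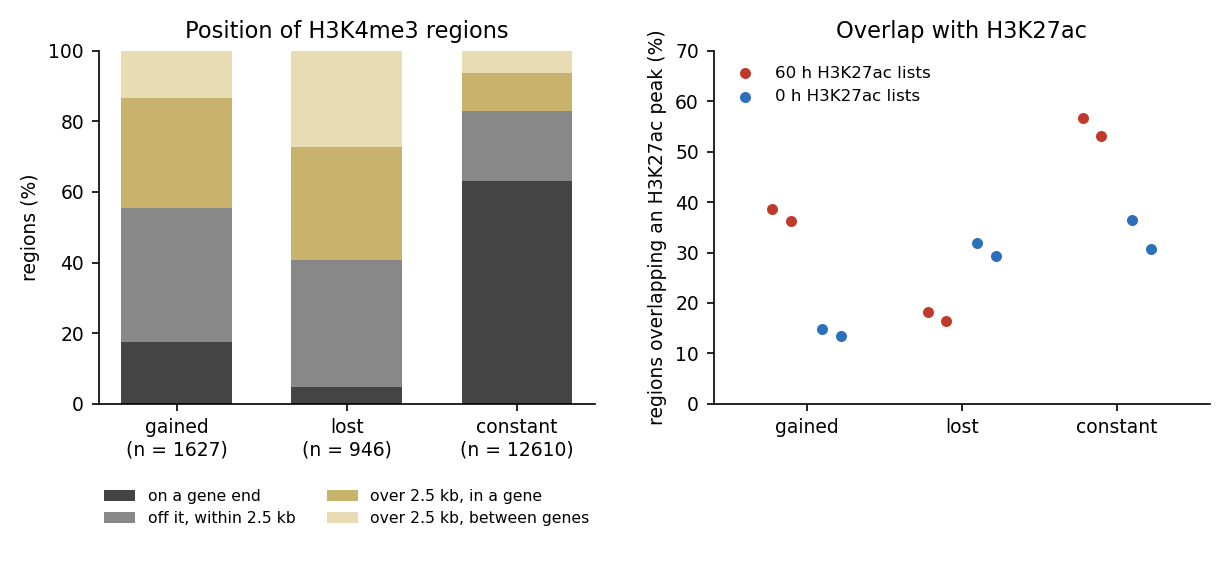
Left, position of gained, lost and constant H3K4me3 regions (x axis) as the share of regions (y axis, percent) on a gene end, off it but within 2.5 kb, and farther away within or between genes. Right, share of regions (y axis, percent) that overlap an H3K27ac peak in each of the 60 h (red) and 0 h (blue) libraries: gained regions stand at 38.5 and 36.2% at 60 h, against 14.9 and 13.5% at 0 h.

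Of the 10 longest gained regions 3 were away from the end of any protein-coding gene. The longest, chr17:61889553-61898917, had 8.79 and 9.37 kb at 60 h and no listed base in either 0 h library, and it holds MIR1, a microRNA gene of striated muscle. The second, chr12:55365052-55373725, lies at LOC396711 and had 8.54 and 8.67 kb at 60 h and no listed base in either 0 h library. Another, chr2:1275466-1282980, had 7.35 and 7.51 kb at 60 h and no listed base in either 0 h library. It lies in the body of LSP1, whose neighbours on chromosome 2 are the fast troponin genes TNNI2 (chr2:1251566-1253883) and TNNT3 (chr2:1297826-1316865). Next, chr7:45966439-45974201 had 7.38 and 7.21 kb at 60 h and no listed base in either 0 h library, and its nearest annotated gene is MIR206, a microRNA gene of skeletal muscle, at 2.09 kb. The fifth, chr6:55324896-55332117, lies 2.65 kb from EMC10 and had 7.22 and 6.79 kb at 60 h and no listed base in either 0 h library. Those at ACTC1, KLHL41, TTN, SHISA2 and CHRNA1 completed the 10. An H3K27ac peak lay in 8 of the 10 in both 60 h libraries and in 2 in both 0 h libraries.

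Lost regions were shorter and mostly off gene ends, with 1 of the 10 longest, at TLX3, on one. The longest, chr15:67321142-67323861 in the body of RBMS1, had no listed base in either 60 h library, against 2.4 and 2.36 kb at 0 h. Near MYF5 the region chr5:100756914-100758664, 1.36 kb from that gene, had no listed base in either 60 h library, against 1.53 and 1.75 kb at 0 h. At PCDH10, a protocadherin gene, the region chr8:93044097-93046524 lies 0.741 kb from the gene end and had no listed base in either 60 h library, against 2.21 and 1.92 kb at 0 h. In each of these 3 both 0 h libraries listed more than 1.5 kb. Another, chr7:120297734-120299828, lies 1.997 kb from BCL11B, a factor of T cells and neurons, and had no listed base in either 60 h library, against 2.1 and 1.93 kb at 0 h. An H3K27ac peak lay in 3 of the 10 in both 60 h libraries and in 4 in both 0 h libraries.

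In the 12807 regions with a peak in all 4 libraries the width was tested with limma. Width here is the length under a library's peaks in the region, summed where it holds more than 1 peak, and needs no added constant. Without scaling 4269 (33.3%) were wider at 60 h and 576 (4.50%) narrower, with a median log2 change of 0.20. After median centring 1907 were wider and 2283 narrower, and with quantile scaling 1813 and 2245. Called under both were 1813 wider regions (14.2%) and 576 narrower (4.50%). This fit has 4 libraries and 2 residual degrees of freedom, and without either 60 h replicate it called 0 regions in each direction, with 4445 and 4995 regions at an unadjusted p below 0.05. Without 0 h replicate 2 it called 360 narrower regions. When all 8 H3K4me3 libraries shared the estimate of the spread, a setting chosen after these values were seen, 4640 regions were wider and 615 narrower, and leaving out any 1 of the 4 libraries then gave 2858 to 3726 and 366 to 467. At least a doubling of width was seen in 836 regions, and 85 were at or below 50% of the 0 h width. With peaks within 1 kb joined beforehand, 2954 of 11718 regions were wider and 563 narrower. How much of the widening came from the joining of peaks was not tested further. In 1069 regions 2 or more peaks in the 0 h libraries stood against 1 in the 60 h libraries, and the reverse held in 41.

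The region widened most was at CLU, the secreted chaperone clusterin, at chr14:11348126-11352998, with 4.87 and 4.39 kb at 60 h, against 0.367 and 0.304 kb at 0 h (log2 change 3.79, adjusted p = 0.00147). At RASSF4 the region chr14:91134611-91139100 had 4.49 and 4.32 kb at 60 h, against 0.342 and 0.423 kb at 0 h. That at MEOX2, chr9:85007642-85010909, had 3.27 and 2.96 kb at 60 h, against 0.299 and 0.256 kb at 0 h. All 3 were short in both 0 h libraries and several kb long in both 60 h libraries. At CHRNG, the embryonic subunit of the muscle acetylcholine receptor, chr15:133051703-133055186 had 3.43 and 3.38 kb at 60 h, against 0.332 and 0.354 kb at 0 h (log2 change 3.31). The region at S100A1, a calcium sensor of striated muscle, chr4:96008349-96013567, had 5.13 and 5.22 kb at 60 h, against 0.570 and 0.549 kb at 0 h (log2 change 3.21). TNNT1, MTCH1, LRRC32, DGKZ and the neighbours CAPNS1 and COX7A1 marked the others of the first 10, of which 8 held an H3K27ac peak in both 60 h libraries and 3 in both 0 h libraries.

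Among narrowed regions the change was smaller. The region at PLEK2, a pleckstrin family gene, chr7:91131481-91133298, had 0.339 and 0.314 kb at 60 h, against 1.62 and 1.46 kb at 0 h (log2 change -2.24, adjusted p = 0.00231). In the body of WNT5A, a WNT ligand gene, chr13:37360572-37362636 had 0.507 and 0.394 kb at 60 h, against 2.06 and 2.01 kb at 0 h. ESM1, a secreted proteoglycan of endothelium, had the longest of them, chr16:34188535-34193651, with 1.29 and 1.57 kb at 60 h, against 4.88 and 5.12 kb at 0 h (log2 change -1.82). Those 3 were at least 2 times longer in every 0 h library than in any 60 h library. KCNJ3, ANGPT2, PROCA1, GBX2, CCNB3, SEMA4B and an unplaced scaffold held the others, of which 1 of 10 had an H3K27ac peak in both 60 h libraries and 3 in both 0 h libraries.

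At 6454 regions on the end of a gene the side toward the gene body and the outer side could be measured apart. The median length toward the body was 1359 and 1322 bp at 60 h, against 1184.5 and 1204 bp at 0 h. On the outer side it was 463.5 and 440 bp at 60 h, against 356 and 365 bp at 0 h. Both sides were longer at 60 h, so the added length lay on either side of the gene end. In the 933 of these regions called wider under both scalings, which the width itself chose, the side toward the body had 1807 and 1783 bp at 60 h, against 1055 and 1073 bp at 0 h.

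The very widest domains, regions in which a library can list several adjoining peaks, were largely shared, with 6 of the widest 10 at 60 h also among the widest 10 at 0 h. The widest of all covers HOXA9 and HOXA10 at chr18:45393348-45415869, with 21.7 and 21.3 kb at 60 h, against 21.9 and 22.3 kb at 0 h, and its width was not called (log2 change -0.04, adjusted p = 0.187). IRS1, the insulin receptor substrate, had 10.7 and 10.6 kb at 60 h, against 10.0 and 10.1 kb at 0 h (adjusted p = 0.0565). In both the libraries differed by less than 10% of their length. The domain over ACAP3 and PUSL1, chr6:63581896-63596431, was in contrast among the widest 10 at 60 h only, with 14.2 and 14.5 kb at 60 h, against 4.69 and 4.45 kb at 0 h (log2 change 1.65, adjusted p = 0.00147). The HOXC9 and HOXC10 domain narrowed to 10.3 and 10.4 kb at 60 h, against 11.6 and 11.9 kb at 0 h (log2 change -0.18, adjusted p = 0.00925).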

How the data were processed

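The authors deposited 1 narrow peak list per library, made with Trimmomatic (version not given) and MACS2 2.1.0 on the pig build Sscrofa11.1, per the submitters' processing notes. For the aligner, options, control library and depth nothing is given in the sources used here. As deposited, the lists hold positions, a display score, a ratio (fold enrichment within the library), −log10 p and q values, and a summit offset in bp. Positions gave all lengths. The deposited −log10 q values served for a stricter filter and the −log10 p values to rank peaks for lists of equal length, while the score and the fold ratio entered no comparison.

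Members and gene lists were chosen with earlier results of these data known, some lists after a look at the values. The 30 lists held 975 genes, of which 930 were in the gene table and 771 were tested. Gene positions came from a RefSeq table of the same build that gives no strand, so windows covered both ends, and neighbours can share a window. Length under peaks within 5 kb was compared as log2 of base pairs plus 500 with limma 3.58.1 (R 4.3.3), using lmFit and then eBayes with a trend and robust settings, over all 8 H3K4me3 libraries in 4 groups, with 4 residual degrees of freedom. Benjamini-Hochberg adjustment ran over the 12908 genes. Regions were peaks of the 4 untreated libraries merged at an overlap of 1 bp, and the widths of those in all 4 were fitted likewise. Both fits were tested on simulated data with 200 changed features. Where each group kept its own spread, the gene fit made 117 false calls. It recovered 54, 91 and 100% of changes of rising size. The region fit made 10 false calls and recovered 26, 63 and 84%. With the same spread in all groups false calls numbered 10 for genes and 3 for regions. Library measures were compared by exact permutation tests. Python 3.11.15, numpy 2.4.6, pandas 2.3.3 and matplotlib 3.10.9 were used.

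Named genes were the 12 that lengthened most and the 12 that shortened most among those called under both scalings with groups that do not overlap, up to 4 called genes with the largest change from each list, and a panel of muscle, cell cycle and reference genes. Further genes, such as MEF2D, RBPJ, MYH7B and HOXB5 to HOXB7, were chosen after their values were seen. Named regions were the 10 longest or most changed of each kind. Same-numbered replicates did not deviate together (correlation of deviations 0.026 over genes), so the numbers were not taken to pair the libraries. The alternatives tried were other scalings, other added constants, a window of 2 kb, no filter on low values, the 4 untreated libraries alone, a −log10 q of at least 5, lists of equal length, peaks within 1 kb joined, a share of 25% of the region, a replicate block and leaving out each library.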

Additional observations from a re-analysis of the deposited data

How the results depend on the processing

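Which way more genes moved depended on the scaling, as given above: 2287 longer and 3380 shorter with quantile scaling and 2784 and 2257 with median centring, against 5354 and 725 without. Leaving out each library in turn gave 3410 to 4204 longer and 445 to 523 shorter genes, and 1623 to 1832 and 445 to 523 under both scalings. Constant regions numbered 1907 wider and 2283 narrower with median centring and 1813 and 2245 with quantile scaling, against 4269 and 576 without. Leaving out each library gave 0 to 3889 wider and 0 to 394 narrower regions, where the counts of 0 came from fits with 1 residual degree of freedom in which the lone 60 h library was assumed to vary like the others. In the fit with all 8 libraries 366 to 467 were narrower, the lowest without 60 h replicate 2. Gained regions ranged from 1879 to 2335 and lost regions from 1117 to 1691 without 1 library, since a region must then meet the rule in fewer libraries. Lost regions numbered 463 at a −log10 q of at least 5 and 553 with no peak below the common shortest width. The difference in peak number, -1048 at 60 h relative to 0 h, turned to 105 at a −log10 q of at least 5, 332 with peaks within 1 kb joined and 649.5 with no peak below the common shortest width, was 0 by construction in lists of equal length, and ranged from -1184 to -912 without 1 library. Covered length differed by 5.03 Mb, by 4.55 Mb with peaks joined and by 4.60 to 5.45 Mb without 1 library. Median width differed by 397.5 bp, by 331.75 bp at a −log10 q of at least 5, 324.5 bp in lists of equal length, 237 bp with peaks joined, 284.5 bp with no peak below the common shortest width and 385 to 410 bp without 1 library. With the replicate number as a block 5094 genes were longer and 678 shorter, and 3718 regions wider and 476 narrower, so no such count moved by over 1.5 times. The numbers are only shared, since deviations of same-numbered libraries correlated at 0.026 over genes. Of 2604 values of 190 named genes under these alternatives 2494 kept their side of the threshold, 98 lost it, 7 passed it and 5 changed sign: IGF2 (-0.0498), MYC (-0.0708) and ACTB (-0.0427) on the log2 scale with quantile scaling, and MYC (-0.0186) and ACTB (-0.0041) with median centring. Most of these genes were named because the main fit called them, and the ranked ones because quantile scaling called them too. That choice fixed part of the agreement, so the count adds no further support. Windows on the transcription start alone were not run, because the gene table gives no strand. Sequencing depth is unknown, and 2 libraries at each time limit every test.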

Other observations

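MicroRNA genes of muscle, which were in no gene list, stood at regions of different classes. MIR1 lies inside the longest gained region and MIR133A-1 lies 5.86 kb from it. The nearest region to MIR206 was 0.345 kb away, at 1.44 and 0.733 kb at 60 h and no listed base in either 0 h library, and MIR133B lies 4.19 kb from the same region. A gained region 1.15 kb from MIR133A-2 had 0.584 and 0.565 kb at 60 h and no listed base in either 0 h library. MIR208B had no region closer than 15.0 kb. The nearest region to MIR499, 9.24 kb away, was a lost one, with no listed base in either 60 h library and 0.585 and 0.656 kb in the 0 h libraries.

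Summed lengths of the defining markers of other cell types varied. The 5 endothelial markers summed to 2.27 and 2.05 kb at 60 h, against 2.46 and 2.40 kb at 0 h, and the 4 adipocyte markers to 1.17 and 1.16 kb at 60 h, against 1.36 and 1.23 kb at 0 h. The 4 smooth muscle markers summed to 0.930 and 1.25 kb at 60 h and no listed base at 0 h, all of it at CNN1. The 5 neuronal and glial markers summed to 0.586 and 0.525 kb at 60 h, against 1.45 and 1.48 kb at 0 h. Immune markers summed to 7.40 and 6.79 kb at 60 h, against 5.29 and 4.71 kb at 0 h, all of it at SPI1, whose window is that of MYBPC3, and at CD68. The summed length of the 7 myogenic markers was 27.4 and 26.9 kb at 60 h, against 16.5 and 17.0 kb at 0 h.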
